A study of Mus musculus with 7 samples.

Results

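The genes described here bring long-chain fatty acids into a cell, carry them through the cytosol and activate them. They are Cd36 and the fatty acid transport proteins Slc27a1, Slc27a2 and Slc27a4 for uptake, Fabp1 and Fabp2 for binding, and the long-chain acyl-CoA synthetases Acsl1, Acsl3, Acsl4 and Acsl5 for activation. They were chosen by gene symbol, as known members of these 3 steps that have a row in the table, and are 10 of its 14795 genes. All 10 passed the filter on low values that left 13399 genes to be tested.

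RNA from whole duodenum was sequenced in 3 Ppara lox/lox and 4 Ppara I-KO mice, all male C57BL/6 on high-fat diet (HFD) according to the labels and the methods of the study. Both genotypes carry loxP sites in Ppara, the gene of the fatty acid receptor PPARα. Ppara I-KO mice also carry Villin-Cre, a recombinase expressed in intestinal epithelium, so the deletion spares the muscle, vessels and immune cells that a whole duodenum also contains. Following the labels, food was withheld for 6 h and then given back for 6 h before sacrifice, in both genotypes, and no age is given. The methods of the study name a shorter fast unless specified otherwise, so the feeding state of these mice is uncertain. Each library is taken as 1 mouse, and the label numbers 1 to 4 only name the mice within a genotype. The labels and methods name no batch or extraction date. Values are normalized CPM, the reads of a gene scaled by a library size that the authors adjusted. An estimated 20744162 to 25866656 reads per library fell on listed genes, worked out from the spacing of the low CPM values because no counts were used. Fewer cells of a type and less RNA per cell cannot be told apart in such tissue.

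In the absorptive cell of the villus, the enterocyte, fatty acids released from dietary fat cross the brush border by diffusion and with the help of membrane proteins. In the cytosol they are held by fatty acid binding proteins, and acyl-CoA synthetases join them to coenzyme A. The acyl-CoA is then rebuilt into triglyceride for chylomicrons, stored in droplets or oxidized. PPARα binds DNA together with RXR at direct repeats of a hexamer spaced by 1 base, and Fabp1, Cd36, Slc27a2 and Acsl1 are textbook PPARα targets in liver.

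Genotype was first read against Ppara itself. Ppara, at chr15:85734983-85802819 of GRCm38, had 53.4, 49.3 and 63.2 CPM in Ppara lox/lox replicates 1 to 3, and 33.05, 40.6, 47.5 and 69.9 CPM in Ppara I-KO replicates 1 to 4. Thus 3 I-KO libraries were under the lox/lox range and I-KO replicate 4 was over it. On the log2(CPM + 1) scale used for all differences here, I-KO minus lox/lox was -0.25 (standard error 0.22, adjusted p = 0.954 by limma). It was -0.10 when I-KO replicate 1 was left out, -0.16 when lox/lox replicate 3 was and -0.45 when I-KO replicate 4 was. The total of a gene includes reads outside the floxed part and reads of cells without Cre, so these values do not check the deletion.

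None of the 10 genes differed between the genotypes at an adjusted p of 0.05 by limma (0 of 10, where 0.0299% of all tested genes were called). Fabp1 was nearest to a call, with a mean 32.0% lower in Ppara I-KO. It alone had no overlap between the genotypes (1 of 10). Without overlap, 440 of all 13399 tested genes (3.28%) were lower and 390 were higher. Fabp1 was also the only gene of the 10 with an unadjusted limma p under 0.05 (1 of 10). At this level 324 of all tested genes (2.42%) were lower and 311 were higher. Of the 10 genes, 6 had a lower and 4 a higher mean log2 value in Ppara I-KO, with a median difference of -0.12. Over all 13399 tested genes, 49.4% were lower and the median was 0.0017. By step, 3 of 4 uptake genes (median -0.23), 2 of 2 binding genes (median -0.42) and 1 of 4 activation genes (median 0.02) were lower. The values of each gene in each duodenum are plotted first, and the differences with their intervals after them.

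**Figure D1:**
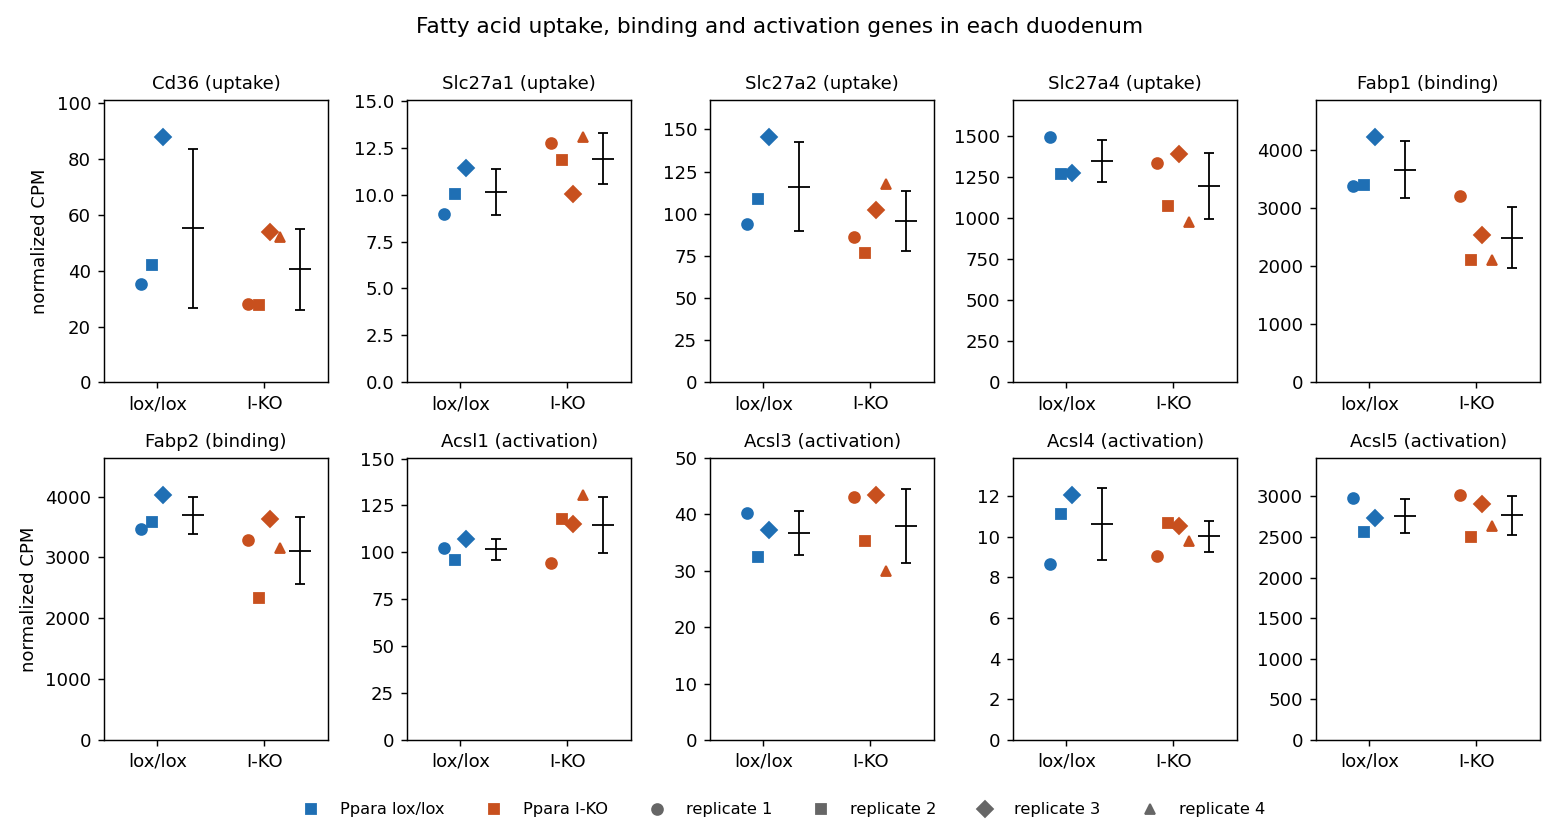
Normalized CPM (vertical axes, linear from 0) of the 10 genes in 3 Ppara lox/lox and 4 Ppara I-KO duodena. Each symbol is 1 library, its shape gives the replicate number, and the black mark with its bar is the mean ± SD of the genotype. In the Fabp1 panel the 4 I-KO libraries lie between 2109 and 3215 CPM, below the lowest lox/lox library at 3380.1 CPM, and in every other panel the genotypes overlap.

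The direct repeat was looked for in the promoters, since it is the element that PPARα binds. A search of RefSeq promoter windows (GRCm38.p6, 250 bases before to 50 after the annotated start) covered 13 windows of the 10 genes. The motif was the hexamer AGGTCA, repeated after 1 free base, on either strand and with at most 2 mismatches in its 12 fixed letters. It was found in 2 of the 13 windows, 1 each for Fabp1 and Cd36, and in 3.86% of all 32851 windows. The Fabp1 match ran from -67 to -55 relative to the RefSeq start with 1 mismatch, as 0.554% of all windows had with at most 1. The Cd36 match, from -63 to -51, had 2 mismatches. Both read on the strand opposite to the gene. The Cd36 window lies inside the annotated gene, and its outer 5′ end at chr5:17888801 was not searched. A match of letters is a description and not a binding site. The bases before the start are shown for Fabp1 and Cd36, which hold a match, and for Fabp2, the partner of Fabp1, which holds none. They run 5′ to 3′ on the strand of the gene, with the match in capitals, and stop where an exon of the annotation begins. For Fabp1 the annotation begins before the RefSeq start. The 198 bases shown for it therefore end short of the start to which its match position refers.
Fabp1, chr6:71199629-71199826, plus strand: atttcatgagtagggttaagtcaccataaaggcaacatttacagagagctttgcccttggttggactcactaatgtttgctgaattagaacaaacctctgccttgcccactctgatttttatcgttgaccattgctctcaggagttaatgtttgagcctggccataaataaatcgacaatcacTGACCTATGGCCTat
Cd36, chr5:17835897-17836146, minus strand: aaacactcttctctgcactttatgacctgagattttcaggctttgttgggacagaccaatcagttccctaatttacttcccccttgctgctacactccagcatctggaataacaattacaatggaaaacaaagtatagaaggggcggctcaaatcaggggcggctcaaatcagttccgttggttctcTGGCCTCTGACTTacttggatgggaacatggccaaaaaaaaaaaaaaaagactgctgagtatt
Fabp2, chr3:122894822-122895071, plus strand: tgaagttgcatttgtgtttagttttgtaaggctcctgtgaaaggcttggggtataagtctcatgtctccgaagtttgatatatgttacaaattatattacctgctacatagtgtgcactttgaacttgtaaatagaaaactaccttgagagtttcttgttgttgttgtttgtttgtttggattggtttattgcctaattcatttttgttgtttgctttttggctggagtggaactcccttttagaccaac

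Fabp1 encodes the liver-type fatty acid binding protein, which enterocytes share with hepatocytes, and lies at chr6:71199827-71205023. The lox/lox libraries held 3380.1, 3398 and 4228 CPM of it, in the order of their replicate numbers as for every gene here. The I-KO libraries held 3215, 2109, 2544 and 2111 CPM. Every I-KO library was below every lox/lox library, and the gap was narrow, since I-KO replicate 1 lay close under lox/lox replicate 1. The means were 3669 ± 485 CPM (SD, n = 3) and 2495 ± 522 CPM (SD, n = 4). This gave a log2 difference of -0.57 (standard error 0.16, 95% confidence interval -0.93 to -0.21), a fold between 0.524 and 0.866. Its unadjusted limma p of 0.00621 ranked 98 among 13399 genes, and the adjusted p was 0.822. Exchanging the genotypes over the CPM values in an exact permutation test gave a two-sided p of 0.0571, and 3 against 4 libraries can reach no p below 0.0286. Over 17 alternatives of scaling, filter, model and libraries, the log2 difference of Fabp1 lay between -0.75 and -0.46. Its unadjusted limma p was under 0.05 in all 17, while the adjusted p was between 0.338 and 0.9999.

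Fabp2 encodes the intestinal-type binding protein, which is made almost only in enterocytes, and lies at chr3:122895072-122899506. It had 3461, 3579 and 4032 CPM in the lox/lox libraries and 3288, 2339, 3639 and 3162 CPM in the I-KO libraries. All I-KO libraries but replicate 3 were under the lox/lox range. Fabp2 differed by -0.26 on the log2 scale (95% confidence interval -0.60 to 0.07, adjusted p = 0.954 by limma, exact permutation p = 0.143, two-sided as all below). Without I-KO replicate 2, the lowest library, it was -0.13.

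Fabp1 and Fabp2 did not keep 1 ratio over the duodena. In CPM the ratio of Fabp1 to Fabp2 was 0.977, 0.949 and 1.05 in the lox/lox libraries and 0.978, 0.902, 0.699 and 0.668 in the I-KO libraries. I-KO replicates 2, 3 and 4 were below all lox/lox libraries and I-KO replicate 1 was among them, so the genotypes overlapped. Fabp1 was also set against the summed CPM of 10 enterocyte genes, from the brush border enzymes Alpi and Sis to the apolipoproteins Apoa4 and Apob. It amounted to 5.88% to 7.85% of that sum in lox/lox and to 4.02% to 5.43% in I-KO duodena. These ranges did not overlap, like those of Fabp1 itself, whose values the share contains. The enterocyte sum itself was between 47375 and 57482 CPM in lox/lox and between 48674 and 62844 CPM in I-KO libraries. Apoa4 alone held between 19814 and 31200 CPM of it, so the sum leans on this gene.

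Cd36 is a scavenger receptor and fatty acid translocase of the brush border, which capillary endothelium, macrophages and adipocytes also express. It lies at chr5:17781690-17888801. Ppara lox/lox replicates 1 to 3 had 35.4, 42.1 and 87.8 CPM of Cd36, and Ppara I-KO replicates 1 to 4 had 28.1, 27.7, 54.0 and 52.1 CPM. Lox/lox replicate 3 stood far above the rest, and of the I-KO libraries replicates 1 and 2 were under the lox/lox range. For Cd36 the log2 difference was -0.39 (standard error 0.35, 95% confidence interval -1.17 to 0.39, adjusted p = 0.954 by limma, exact permutation p = 0.457). Without lox/lox replicate 3 it was -0.0029, and without lox/lox replicate 1 it was -0.65. The coefficient of variation of Cd36 was 51.8% in lox/lox and 35.9% in I-KO duodena, the widest of the 10 genes in both. The counting error at its lowest library, with an estimated 587 reads, was 4.13%.

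Other cells that express Cd36 were followed by their markers. Summed CPM of 6 capillary endothelial markers was between 86.8 and 104 in lox/lox and between 97.2 and 124 in I-KO libraries. For 5 macrophage markers the sum was between 179 and 260 CPM in lox/lox and between 233 and 285 CPM in I-KO libraries, and for 4 adipocyte markers it was between 114 and 127 CPM and between 103 and 141 CPM. Of the adipocyte sum most was Cidec, which enterocytes also express, and Adipoq was at most 2.10 CPM. All 6 endothelial and all 5 macrophage markers had a higher mean log2 value in Ppara I-KO, opposite to Cd36, while 2 of 3 tested adipocyte markers had a lower one (median difference -0.21), as Cd36 did. The part of these cells in the values of Cd36 was not tested.

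Slc27a2, the transport protein FATP2 with very long-chain acyl-CoA synthetase activity, lies at chr2:126552407-126588243. It had 93.95, 109 and 145 CPM in lox/lox and 86.2, 76.7, 102 and 117 CPM in I-KO libraries. As with Cd36, lox/lox replicate 3 was the highest library, and I-KO replicates 1 and 2 were below every lox/lox library. Slc27a2 had a log2 difference of -0.27 (95% confidence interval -0.68 to 0.14, adjusted p = 0.954 by limma, exact permutation p = 0.286). It was -0.10 without lox/lox replicate 3 and -0.41 without lox/lox replicate 1.

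Slc27a4 encodes FATP4, the main transport protein of this family in the small intestine, at chr2:29802634-29817522. Its level was 1493, 1270.2 and 1277 CPM in lox/lox libraries and 1336, 1075, 1393 and 979 CPM in I-KO libraries. I-KO replicates 2 and 4 were below every lox/lox library and the other two lay among them. For Slc27a4 the log2 difference was -0.18 (95% confidence interval -0.49 to 0.13, adjusted p = 0.954 by limma, exact permutation p = 0.286). It was -0.09 when I-KO replicate 4 was left out, -0.11 when lox/lox replicate 1 was, and -0.26 when I-KO replicate 3 was.

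Slc27a1, or FATP1, is best known from muscle and fat and lies at chr8:71568882-71587302. It was the uptake gene with the lowest level, at 8.99, 10.04 and 11.4 CPM in lox/lox and 12.7, 11.8, 10.01 and 13.1 CPM in I-KO libraries. I-KO replicates 1, 2 and 4 were over the lox/lox range and I-KO replicate 3 was among them, so that it went the other way from the other uptake genes. Its log2 difference was 0.21 (95% confidence interval -0.05 to 0.47, adjusted p = 0.954 by limma, exact permutation p = 0.143). It was 0.14 when lox/lox replicate 1 was left out and 0.29 when lox/lox replicate 3 was.

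Acsl5, a synthetase of mitochondria and endoplasmic reticulum and the main one of the small intestine, had the highest level of the activation genes. It lies at chr19:55251938-55297720. Levels were 2977, 2561 and 2731 CPM in lox/lox and 3021, 2504, 2912 and 2639.9 CPM in I-KO libraries. The genotypes overlapped almost fully, with coefficients of variation of 7.59% and 8.61%. Acsl5 differed by 0.0054 on the log2 scale (95% confidence interval -0.22 to 0.23, adjusted p = 0.997 by limma, exact permutation p = 0.943), so a fold outside 0.861 to 1.17 lay beyond the interval. The sign turned with the processing. It was -0.032 with column totals, -0.069 scaled to Epcam and -0.024 scaled to Tbp. Leaving out lox/lox replicate 2 gave -0.046, leaving out I-KO replicate 1 gave -0.038, and leaving out I-KO replicate 3 gave -0.020. Zdhhc6, on the opposite strand and with a mean of 33.2 CPM, overlaps Acsl5, and the strand setting of the counting is not given in the sources used here.

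Acsl1, the synthetase best known from liver, fat and heart, lies at chr8:46471037-46536051. It had 102, 95.7 and 107 CPM in lox/lox and 94.6, 118, 115 and 131 CPM in I-KO libraries. I-KO replicates 2, 3 and 4 were over the lox/lox range and I-KO replicate 1 was below them all. For Acsl1 the log2 difference was 0.16 (95% confidence interval -0.09 to 0.42, adjusted p = 0.954 by limma, exact permutation p = 0.229). Leaving out I-KO replicate 1 gave 0.25, and leaving out I-KO replicate 4 gave 0.10.

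Acsl3, a synthetase of the endoplasmic reticulum and lipid droplets, lies at chr1:78657825-78707743. Its values were 40.3, 32.5 and 37.3 CPM in lox/lox and 43.15, 35.3, 43.5 and 30.01 CPM in I-KO libraries. The I-KO libraries reached both above and below all lox/lox libraries. Acsl3 had a log2 difference of 0.04 (95% confidence interval -0.28 to 0.36, adjusted p = 0.987 by limma, exact permutation p = 0.743). It turned to -0.035 scaled to Epcam, to -0.045 when lox/lox replicate 2 was left out, to -0.027 when I-KO replicate 1 was, and to -0.031 when I-KO replicate 3 was. Utp14b overlaps Acsl3 on the same strand with a mean of 12.0 CPM, so the counts of Acsl3 are less certain.

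Acsl4, which prefers arachidonate, lies at chrX:142317993-142390535. It had 8.64, 11.1 and 12.1 CPM in lox/lox and 9.05, 10.7, 10.5 and 9.80 CPM in I-KO libraries, which all lay inside the lox/lox range. Acsl4 differed by -0.07 (95% confidence interval -0.33 to 0.20, adjusted p = 0.976 by limma, exact permutation p = 0.543) on the log2 scale, and by 0.026 without lox/lox replicate 3. The lowest library held an estimated 175 reads of Acsl4, with a counting error of 7.56%.

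**Figure D2:**
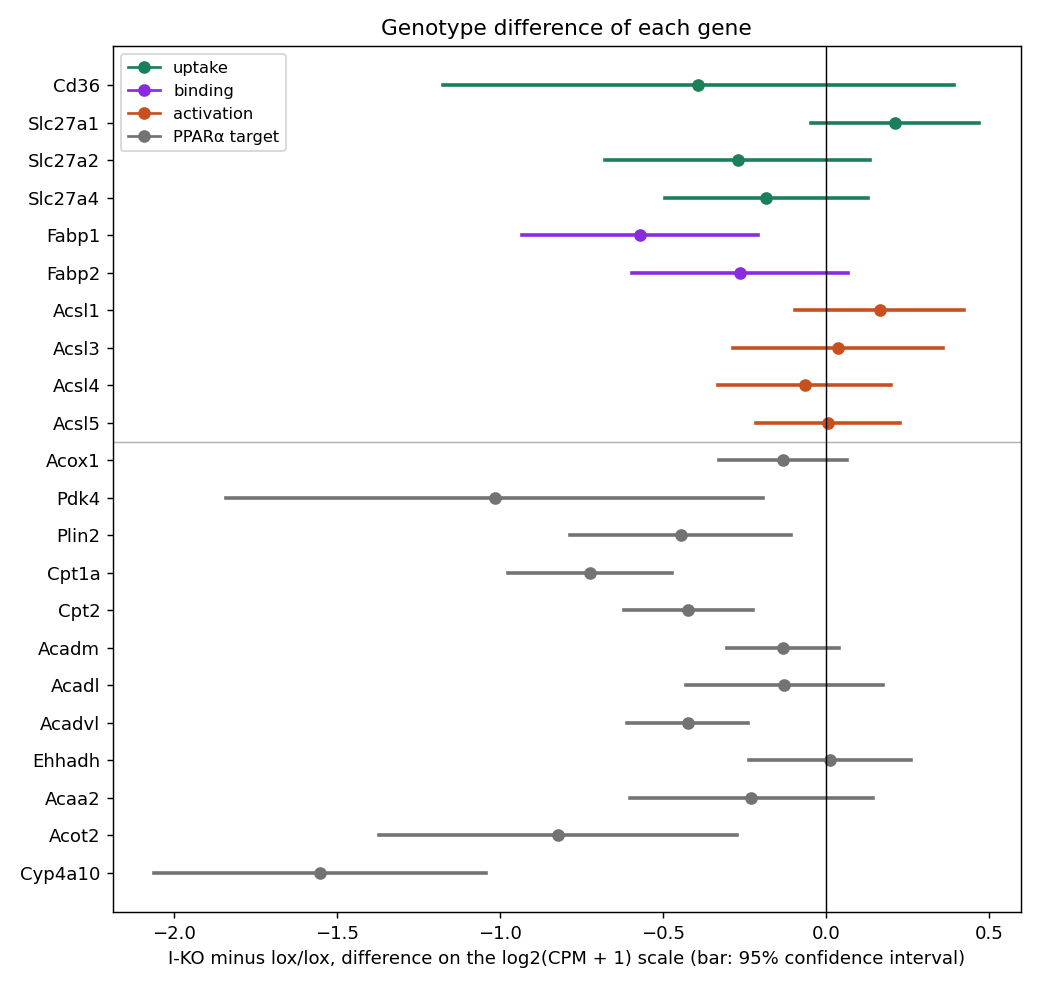
Difference of Ppara I-KO minus Ppara lox/lox on the log2(CPM + 1) scale (horizontal axis) for each of the 10 genes, coloured by step, and for 12 other PPARα targets in grey. Points are limma estimates and bars 95% confidence intervals, from 3 lox/lox and 4 I-KO libraries. Among the 10 genes the interval lies wholly below 0 for Fabp1 alone (-0.93 to -0.21), and the 4 activation genes lie between -0.07 and 0.16.

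The uptake values depended on single libraries. Lox/lox replicate 3 was the highest lox/lox library for 7 of the 10 genes, and the lowest for none, and it also had the highest Ppara of the lox/lox libraries. Without it, the median log2 difference of the 10 genes was -0.0014, and 5 of 10 were lower. The median of the uptake genes was then -0.05, and that of the binding genes -0.33. I-KO replicate 2 was the lowest I-KO library for 5 of the 10 genes. In a pattern seen only after the values were known, I-KO replicates 3 and 4 had the highest Cd36, Slc27a2 and Ppara of the I-KO libraries. I-KO replicate 1, which had the highest Fabp1 of its group, also held 348 CPM of summed pancreatic acinar markers, where lox/lox replicate 2 held 75.4 CPM and the other libraries between 17.5 and 32.7 CPM. Without both of these libraries the log2 difference of Fabp1 was -0.75 and that of Cd36 -0.38.

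**Figure D3:**
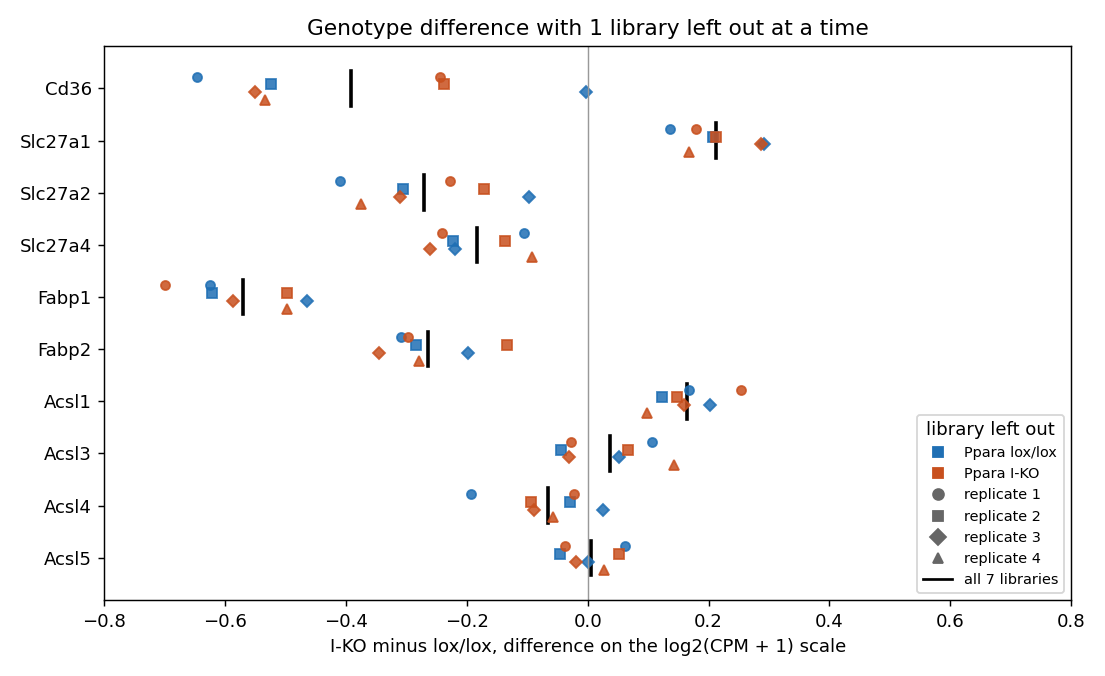
Log2 difference of Ppara I-KO minus Ppara lox/lox (horizontal axis, log2(CPM + 1) scale) of the 10 genes when 1 library at a time is left out. The black line is the value from all 7 libraries, and each symbol names by colour and shape the library left out. Cd36 runs from -0.65 to -0.0029, Fabp1 stays between -0.70 and -0.46, and Acsl3, Acsl4 and Acsl5 lie on both sides of 0.

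The 3 steps differed widely in level. To compare genes, CPM was divided by the length of all annotated exons of a gene in kilobases. In lox/lox duodena Fabp1 came first at 6634 ± 877 CPM per kb (SD, n = 3), followed by Fabp2 at 3824 ± 312, Acsl5 at 567 ± 43.0 and Slc27a4 at 305 ± 28.8 CPM per kb. Slc27a2 came next at 30.9 ± 7.07 CPM per kb and then Cd36 at 15.3 ± 7.95 CPM per kb. The order of these 6 was the same in all 7 libraries. Acsl1 at 9.69 ± 0.545 and Acsl3 at 8.43 ± 0.903 CPM per kb were lower, but the lox/lox range of Cd36 overlapped that of Acsl1, and that of Acsl1 overlapped that of Acsl3. Acsl4 at 1.96 ± 0.327 CPM per kb and Slc27a1 at 1.74 ± 0.206 CPM per kb also overlapped. With the longest coding transcript as length, Acsl1 moved above Cd36 (26.1 against 16.2 CPM per kb) and Slc27a1 above Acsl4 (3.63 against 2.01 CPM per kb), while Fabp1 and Fabp2 had the same length by both.

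**Figure D4:**
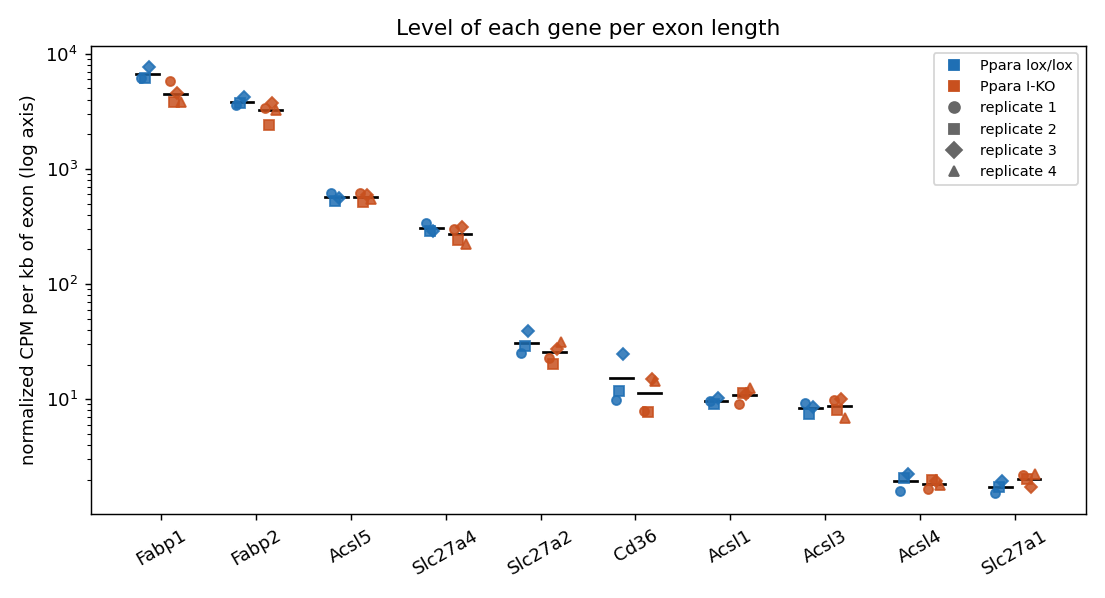
Level of each of the 10 genes in normalized CPM per kilobase of annotated exon (vertical axis, logarithmic), ordered by the lox/lox mean. Symbols are single libraries of Ppara lox/lox (3) and Ppara I-KO (4), and black lines are the means. Fabp1, Fabp2, Acsl5 and Slc27a4 stand above the other genes, with lox/lox means of 305 CPM per kb or more, where the next gene has 30.9.

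Within a step, 1 gene held most of the level in both genotypes. Slc27a4 made up 81.6% to 90.3% of the summed CPM per kb of the 4 uptake genes in lox/lox and 82.2% to 90.2% in I-KO duodena. For activation, Acsl5 made up 96.4% to 96.7% and 96.0% to 96.8%. These shares overlapped between the genotypes. The 10 genes together took 1.11% to 1.31% of all CPM in lox/lox and 0.817% to 1.08% in I-KO libraries, most of it in Fabp1, Fabp2 and Acsl5.

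Of 25 further genes of fatty acid uptake, binding and activation, 15 passed the filter. They include other transport proteins, Fabp4 and Fabp5, further synthetases, Scarb1, Cav1 and the acyl-CoA binding proteins Dbi and Acbd3 to Acbd6. By limma 0 of 15 passed an adjusted p of 0.05 and 0 of 15 an unadjusted p of 0.05. The log2 differences lay between -0.19 and 0.18, with a median of -0.03, and 9 were lower (12 of 15 scaled to Epcam, and 6 of 15 without both libraries highest in acinar genes). Without overlap between the genotypes, 440 of all 13399 tested genes (3.28%) were lower and 390 were higher. Among the 15 genes only Got2, named after its values were seen, had no overlap (1 of 15). It encodes mitochondrial aspartate aminotransferase, also described as a fatty acid binding protein of the plasma membrane. Got2 had 100.2, 102 and 106 CPM in lox/lox and 91.05, 100.05, 92.1 and 99.99 CPM in I-KO libraries, a gap between the genotypes of under 1 CPM.

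The same libraries were read for 12 PPARα targets of other pathways, mostly of fatty acid oxidation, from a list chosen with earlier results of these data known. The I-KO mean log2 value was lower for 11 of 12 (12 of 12 scaled to Epcam, to Tbp or with column totals), the median log2 difference was -0.42, and by limma 0 passed an adjusted p of 0.05 and 7 of 12 were lower at an unadjusted p of 0.05, where 2.42% of all tested genes were. Without overlap between the genotypes 6 of 12 were lower, where 3.28% of all tested genes were. The 3 with the smallest p were the fatty acid hydroxylase Cyp4a10, the carnitine palmitoyltransferase Cpt1a and Acadvl, the very long-chain acyl-CoA dehydrogenase of mitochondria. Cpt1a had 96.4, 104 and 122 CPM in lox/lox and 57.7, 63.1, 64.0 and 72.8 CPM in I-KO libraries, a log2 difference of -0.72 (adjusted p = 0.134 by limma). Acadvl (log2 difference -0.42, adjusted p = 0.399 by limma) and Cyp4a10 (log2 difference -1.55, adjusted p = 0.116 by limma) also had all I-KO below all lox/lox libraries. Cyp4a10 was near the floor, at 1.78, 2.57 and 4.87 CPM in lox/lox and 0.29, 0.24, 0.21 and 0.58 CPM in I-KO libraries. It passed the filter on low values only through the lox/lox libraries, where it was higher. Its place in the counts above therefore carries no weight. The median for the 10 genes of uptake, binding and activation was -0.12 beside -0.42 for these targets, and this difference was not tested.

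Markers of other tissue were summed in the same way. Smooth muscle markers gave 991 to 1221 CPM in lox/lox and 1022 to 1435 CPM in I-KO libraries. Blood and platelet markers gave at most 14.4 CPM, hepatocyte markers at most 5.37 CPM, the ileal marker Slc10a2 at most 0.510 CPM and Tff2 of Brunner glands and stomach at most 1.20 CPM, with Tff2 at 0 in 3 libraries. All 16 markers of endothelium, macrophages and smooth muscle had a higher mean log2 value in Ppara I-KO, with a median difference of 0.14. With sample quality weights 14 of 16 did, and without lox/lox replicate 1, lox/lox replicate 3 or I-KO replicate 1 it was 15 of 16. Of 10 enterocyte markers, 7 were higher and 3 lower (5 and 5 without both libraries highest in acinar genes). The smallest adjusted p by limma over all these marker lists was 0.791, and their part in the values of the 10 genes was not tested.

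The 95% confidence interval of a log2 difference had a median half-width of 0.32 over the 10 genes. Smaller differences in a single gene were mostly not detectable with 3 and 4 mice. Larger ones could also go uncalled after adjustment over all genes, as Fabp1 at -0.57 and Cpt1a at -0.72 did. The absence of a call does not show that the genotypes were alike.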

How the data were processed

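Stranded mRNA libraries of 7 duodena, 3 of Ppara lox/lox and 4 of Ppara I-KO mice, were read with 100 base single reads. The authors deposited 1 table of signal values, normalized CPM of 14795 genes to 2 decimals. The submitters' processing notes name FastQC 0.11.2, TopHat2 2.0.13, Picard 1.80, HTSeq 0.6.1, EdgeR and mm10. Columns summed to between 969589 and 1098618, so differences depend on the authors' library size adjustment. Of low values, 78.9% to 100% per library lay within 0.1 of a whole read, under 95% in 5 libraries, so count models were not used.

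Genes had to exceed 1 CPM in 3 or more libraries, which left 13399. Their log2(CPM + 1) was modelled in limma 3.58.1 (R 4.3.3) by genotype only, with Benjamini-Hochberg adjustment over all genes. This scale understates differences of low genes. Single genes also had an exact two-sided permutation test over 35 ways to choose 3 of 7 libraries. Replicates differed by more than sampling noise (chi-square per degree of freedom at least 13.5). Controls were littermates, but which mice shared a litter is not given, and p-values set a difference against the variation between these libraries. Coordinates and lengths are from GENCODE M21 (GRCm38, the build also called mm10), and promoters from RefSeq.

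The 10 genes and all lists were chosen with earlier results of these data known. Named were the 10 genes, Ppara, the 3 targets with the smallest p, and genes of the other pathway list with an unadjusted p under 0.05 or marker lists with an adjusted p under 0.05, of which there were none. Got2 was named after its values were seen. 1 gene of the target list is not reported here and was left out of its counts. Alternatives were other scalings, filter, pseudocount 0.5, variance models, a replicate block, unadjusted p and libraries left out. Python 3.11.15, pandas 2.3.3 and matplotlib 3.10.9 were used for tables and plots.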

Additional observations from a re-analysis of the deposited data

Results flagged for a closer look

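In the 4 Ppara I-KO libraries, 24 quantities were searched for a single library far from the others, by the gap to its nearest neighbour over the whole range. At Dixon's 95% critical value chance gives about 1 in 20, or 1.2 of 24, and 2 were past it. Summed pancreatic acinar markers had a ratio of 0.954, from 348 CPM in I-KO replicate 1 against at most 32.7 CPM in the other I-KO libraries. Summed Brunner gland and stomach markers had a ratio of 0.958, which rested on Tff2 alone, at 1.20 CPM in the same library and at most 0.05 CPM in the others. None of the 10 genes of fatty acid uptake, binding and activation was past this value. The largest ratio among them was 0.633 for Fabp2, in which I-KO replicate 2 was lowest.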

How the results depend on the processing

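Over 17 alternative fits by limma, 0 of the 10 genes and 0 of the other genes of the 3 steps passed an adjusted p of 0.05 in any. With an unadjusted p of 0.05, 1 of the 10 genes passed (Fabp1), and 635 genes of the whole table instead of 4. Sample quality weights called 12 genes, and with each library left out in turn between 3 and 5 were called. Of 170 log2 differences of the 10 genes, 15 changed sign, for Acsl3 (5), Acsl4 (2) and Acsl5 (8), all of them near 0. Acsl3 was -0.035 scaled to Epcam and -0.11 without both libraries highest in acinar genes, where Acsl4 was 0.014 and Acsl5 was -0.089. Acsl5 was -0.032 with column totals, -0.069 scaled to Epcam, -0.024 scaled to Tbp and -0.0017 with sample quality weights. With single libraries left out, Acsl3 ran from -0.045 to 0.14, Acsl4 from -0.19 to 0.026 and Acsl5 from -0.046 to 0.062. The cause was not tested. Scaled to Epcam, 70.6% of all genes were lower, 60.6% with column totals and 58.0% with Tbp, against 49.4% as deposited, and 8, 7 and 7 of the 10 genes were. The median of the 10 genes ran from -0.20 scaled to Epcam to -0.0014 without lox/lox replicate 3.

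With the replicate number as a block over replicates 1 to 3, I-KO replicate 4 was left out, and 0 of the 10 genes and 3 genes in all were called. The median difference of the 10 genes was -0.07, the same as without I-KO replicate 4 and without a block. Over all tested genes, same-numbered libraries did not deviate together (r = -0.01, 0.18 and -0.0092), so the numbers were not taken as pairs. The unadjusted limma p of Cd36 under this block was 0.00252 (adjusted p = 0.583).

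The planned tests on whole reads with EdgeR and DESeq2 were not run, since too few low values lay near whole reads. At these depths the estimated counting error of the 10 genes in their lowest library is at most 7.56%. This largest value is that of Acsl4 in lox/lox replicate 1. The coefficient of variation of Acsl4 was 16.6% in lox/lox and 7.50% in I-KO duodena.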
